A study of Mus musculus with 27 samples.

Results

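The conjugation genes described here are the glutathione S-transferases (*Gsta*, *Gstk*, *Gstm*, *Gsto*, *Gstp*, *Gstt* and *Gstz*), the microsomal glutathione S-transferases (*Mgst*), the sulfotransferases (*Sult*) and the UDP-glucuronosyltransferases of the *Ugt2a* and *Ugt2b* groups. They were taken by gene symbol from all genes of the count tables. Of 56 protein-coding genes with such symbols, 32 had a mean of at least 10 counts per mouse and are the members, while 24 did not, and 7 further matching symbols belong to pseudogenes with 0 counts. In comparison, 13031 protein-coding genes reached the same mean.

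RNA-Seq was performed on epithelium scraped from the distal ileum of 27 male C57BL/6 mice at postnatal day 56. 3 mice received sesame oil vehicle and 3 received each of 8 doses of TCDD, from 30, 10, 3 and 1 down to 0.3, 0.1, 0.03 and 0.01 µg/kg, by oral gavage at 4 d intervals over 28 d. TCDD (2,3,7,8-tetrachlorodibenzo-*p*-dioxin) is a persistent ligand of the aryl hydrocarbon receptor (AhR), a transcription factor. By their labels the groups differ in dose alone.

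Enzymes of these families attach a polar group to a substrate so that it can be excreted. Glutathione S-transferases join the tripeptide glutathione to electrophiles, including products of lipid peroxidation, sulfotransferases transfer sulfate from the donor PAPS to phenols, steroids and bile acids, and UDP-glucuronosyltransferases transfer glucuronic acid. The intestinal epithelium meets dietary and biliary substrates of all 3 routes, and several of these genes are textbook targets of AhR or NRF2, the regulator of antioxidant genes, in liver.

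Depth was similar between mice, with 12.26 to 17.14 M counts on genes. *Cyp1a1*, the standard AhR target, lay between 0 and 0.211 CPM (library-scaled counts) without TCDD, between 3.32 and 6.30 CPM at 1 µg/kg and between 1062 and 2279 CPM at 30 µg/kg. The markers of absorptive enterocytes and distal ileum were present in every mouse, and the summed pancreas list was at 26.3 CPM in mouse 52 (3 µg/kg) and at most 1.14 CPM in the others. A sequencing index is recorded with each library, and some indexes recur in the series. First or second use was inferred from the order of mouse numbers, and no label states it. By that order 16 mice held a first use (vehicle to 0.3 µg/kg and mouse 41 at 1 µg/kg). The other 11 held a second use (mice 43 and 44 at 1 µg/kg and all mice at 3, 10 and 30 µg/kg). For 3, 10 and 30 µg/kg against vehicle, a difference by dose and one by index use cannot be told apart. In fits of the 9 groups with index use as a covariate, its effect is estimated at 1 µg/kg alone, from mouse 41 against mice 43 and 44. Values adjusted in this way at 3, 10 and 30 µg/kg rest on that difference. Clock genes also differed from vehicle. Of 14 clock genes 10 were called higher and 3 lower at 30 µg/kg (criteria below), against 5.42% and 3.98% of all genes. *Nr1d1*, a clock repressor, went from a vehicle range of 2.77 to 11.4 CPM to one of 78.4 to 129.1 CPM. Its fold changes against vehicle were 25.19, 21.88, 22.91 and 16.25 at 1, 3, 10 and 30 µg/kg, with no further rise above 1 µg/kg. Among cell type markers, the summed goblet list was at 21870 to 24650 CPM in vehicle mice against 30720 to 33560 CPM at 30 µg/kg. Of its 7 genes only 1, *Zg16*, was called, and it was higher. The enteroendocrine list was at 148.4 to 167.5 CPM in vehicle mice against 274.6 to 335.1 CPM, and the B and plasma cell list at 227.2 to 378.0 against 84.2 to 154.5 CPM. The part of index use, of the clock and of cell composition in the differences below was not tested except where stated, and in scrapings fewer cells of a type and less RNA per cell cannot be told apart.

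Levels of different genes were compared as CPM per kb of exon. All annotated exons of a gene were merged, so the order depends on the annotated length. *Ugt2b34* was the highest of the 32 members at 84.6 ± 9.11 (SD, n = 3 vehicle mice), followed by *Gsto1*, the omega-class enzyme that reduces dehydroascorbate, at 82.9 ± 8.12. These top levels per kb did not differ beyond their spread, taken as the root of the summed variances of both genes. Without length scaling *Ugt2b34* was at 364.9 ± 39.3 CPM and *Gsto1* at 167.7 ± 16.4 CPM. A second tier held *Mgst3* (53.2 ± 2.03), *Sult1d1* (51.6 ± 7.42), *Mgst1* (51.4 ± 3.79) and *Sult1b1* (46.0 ± 5.58), whose neighbours also did not differ beyond the spread. *Sult2b1*, which sulfates cholesterol and related 3β-hydroxysteroids, followed at 33.5 ± 1.44, then *Gstp1*, the pi-class enzyme, at 28.7 ± 3.53 and *Mgst2* at 22.0 ± 1.07.

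The cytosolic alpha- and mu-class genes were lower. *Gsta1* led the alpha class at 13.3 ± 1.46 and *Gstm3* the mu class at 11.4 ± 3.39 CPM per kb. Of their 50-base stretches, 90.5% and 28.8% are also present in transcripts of other genes. Alignments recorded as not unique were left out, so these levels may be too low and their order is uncertain. *Gstt3*, *Gstk1* and *Gstz1*, the highest members of the theta, kappa and zeta classes, were at 6.49 ± 0.563, 5.89 ± 0.780 and 2.95 ± 0.399. *Ugt2a3*, the only *Ugt2a* member, was at 1.08 ± 0.564, and *Gsta3* was last at 0.464 ± 0.281. Without length scaling *Gsta3* was at 2.02 ± 1.22 CPM, and the lowest mean was that of *Gstm7* (1.14 ± 0.293 CPM). In CPM all members summed to 1363 ± 107.9 in vehicle mice, of which the *Sult* members held 390.3 ± 36.3 and the *Ugt2b* members 386.6 ± 43.4.

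**Figure D1:**
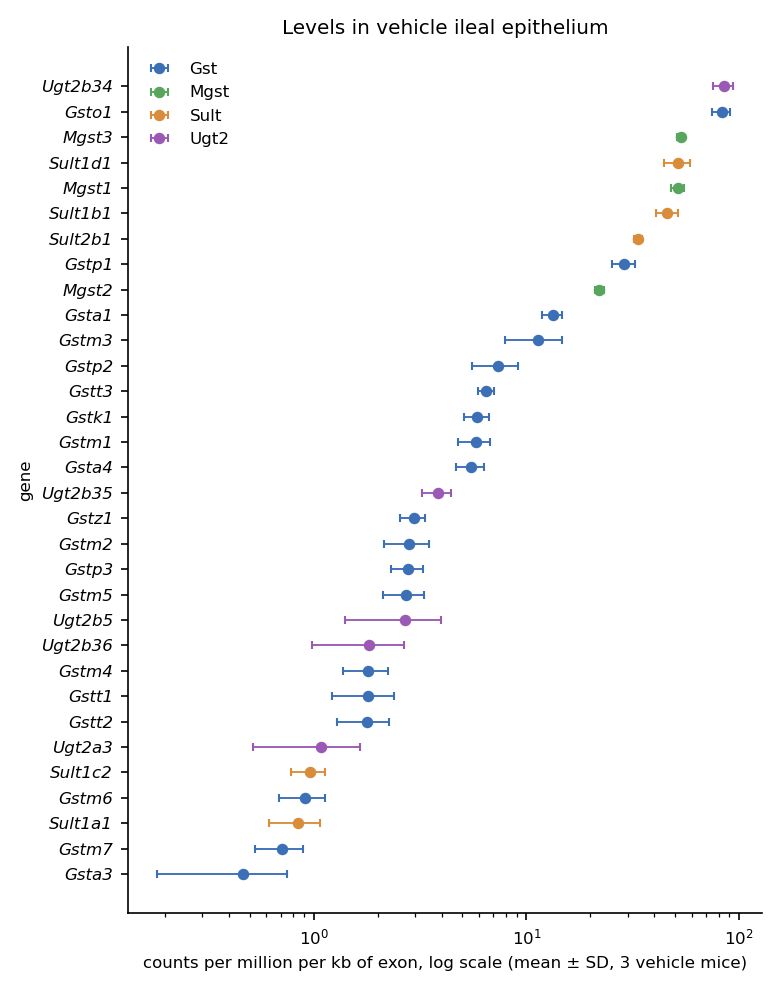
Length-scaled level of each of the 32 members in vehicle ileum, in CPM per kb of exon on a log axis, as the mean ± SD of 3 mice, coloured by family. The order runs from *Ugt2b34* at 84.6 to *Gsta3* at 0.464.

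14 of the 24 genes under the mean of 10 had no count in any of the 27 mice. They included all 8 *Sult2a* genes, the family that sulfates bile acids and dehydroepiandrosterone in liver, together with *Sult1e1*, the estrogen sulfotransferase, *Sult1c1*, *Sult3a1*, *Sult3a2*, *Ugt2a1* and *Ugt2a2*. A count of 0 allows up to 3 counts, or 0.175 to 0.245 CPM per mouse, and covers counting error only. Of the 50-base stretches of *Sult2a2* and *Ugt2a1*, 62.1% and 97.0% are also present in transcripts of other genes, compared with 0.0% for *Sult2a7* and 1.96% for *Sult2a8*. The genes nearest to the limit were *Gstm7* (mean 14.2 counts), *Sult1a1* (21.1) and *Sult1c2* (21.9) inside it and *Sult4a1* (2.3) and *Sult6b2* (2.1) outside it.

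Shared sequence bears on which members can be read as single genes. *Gsta4* (chr9:78182774-78209349, + strand, GRCm38) shares 0.0% of its 50-base stretches with any other annotated transcript, whereas *Gsta1* downstream of it (chr9:78230656-78242684) shares 90.5%, mainly with *Gsta2*. Compared position by position without gaps, the coding sequences of *Gsta4* and *Gsta1* (669 and 672 bases) were identical at 65.8% of bases, against 97.9% for *Gsta1* and *Gsta2*. The first 120 coding bases, which show how well reads of *Gsta4* can be separated from its neighbour, are given with the 36 bases that differ in capitals, from GENCODE M21 transcripts.
Gsta4: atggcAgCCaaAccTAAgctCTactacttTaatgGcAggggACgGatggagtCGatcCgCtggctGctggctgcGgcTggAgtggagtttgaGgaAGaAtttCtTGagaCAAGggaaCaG
Gsta1: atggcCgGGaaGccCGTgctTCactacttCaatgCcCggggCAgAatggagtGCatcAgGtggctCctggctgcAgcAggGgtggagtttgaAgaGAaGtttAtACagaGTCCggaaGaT

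Differences were thus spread over the whole stretch. *Gstp1* and *Gstp2* shared 33.7% and 54.3% of their stretches, mainly with each other, and *Ugt2b5* shared 41.7% with *Ugt2b38* and its neighbours, so that the division of reads within these pairs is uncertain. For *Sult1a1*, *Sult2b1* and *Ugt2b34* the share was 7.36%, 5.75% and 1.44%, and for *Sult1d1* it was 0.0%.

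Promoters (250 bases before to 50 after the start, RefSeq, GRCm38.p6) were present in the sequence table for 30 of the 32 members, the exceptions being *Gsta4* and *Gstt2*. They were searched on both strands for GCGTG, the core of the dioxin response element to which AhR binds, and for TGACNNNGC, the core of the antioxidant response element used by NRF2. GCGTG was found for 9 members (30.0%), compared with 35.2% of the 27025 genes in the table. TGACNNNGC was found for 4 members (*Gsta3*, *Gstm5*, *Gstm7* and *Mgst1*; 13.3%), against 14.0%. In *Gstm5* a TGACNNNGC match overlaps a GCGTG match on the other strand. The shares of members were thus close to those of all genes. Among the members with an adjusted p of at most 0.05 at 30 µg/kg, *Gstp1*, *Sult1d1* and both starts of *Sult2b1* held this core on 1 of the strands, printed in capitals (for *Sult1d1* on the opposite strand, so its complement is shown), while *Sult1a1* and *Ugt2b34* held neither motif in this window. A match describes the letters only.
Gstp1, chr19:4037863-4038162, minus strand: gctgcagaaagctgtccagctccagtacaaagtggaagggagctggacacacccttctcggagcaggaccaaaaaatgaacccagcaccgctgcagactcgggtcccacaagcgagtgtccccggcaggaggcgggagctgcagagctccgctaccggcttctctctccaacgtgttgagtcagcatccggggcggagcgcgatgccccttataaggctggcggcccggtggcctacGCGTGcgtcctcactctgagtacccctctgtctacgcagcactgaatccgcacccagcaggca
Sult1d1, chr5:87568957-87569256, minus strand: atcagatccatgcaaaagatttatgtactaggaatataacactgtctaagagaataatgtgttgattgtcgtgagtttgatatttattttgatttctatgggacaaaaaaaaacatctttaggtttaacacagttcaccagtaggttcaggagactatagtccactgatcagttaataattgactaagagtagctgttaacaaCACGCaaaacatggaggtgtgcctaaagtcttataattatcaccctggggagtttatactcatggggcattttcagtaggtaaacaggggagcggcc
Sult2b1, chr7:45759563-45759862, minus strand: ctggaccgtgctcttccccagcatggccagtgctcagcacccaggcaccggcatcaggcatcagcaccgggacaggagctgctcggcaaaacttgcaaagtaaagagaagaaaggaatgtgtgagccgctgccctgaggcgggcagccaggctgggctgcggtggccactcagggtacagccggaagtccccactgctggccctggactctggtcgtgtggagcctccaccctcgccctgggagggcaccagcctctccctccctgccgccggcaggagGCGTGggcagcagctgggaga
Sult2b1, chr7:45742429-45742728, minus strand: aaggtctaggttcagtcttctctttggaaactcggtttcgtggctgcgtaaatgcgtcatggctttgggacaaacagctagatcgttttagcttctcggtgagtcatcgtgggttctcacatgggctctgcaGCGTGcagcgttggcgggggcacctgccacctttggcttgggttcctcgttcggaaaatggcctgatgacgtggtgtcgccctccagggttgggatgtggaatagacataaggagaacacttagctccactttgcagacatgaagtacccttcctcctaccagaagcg

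Of the 32 conjugation genes 2 were called, *Gsta4* and *Sult1a1*, both higher with TCDD and both at the highest dose alone. A member was called at an adjusted p (edgeR quasi-likelihood test, Benjamini-Hochberg over 16741 genes) of at most 0.05 with a fold change of at least 1.5. No member was called at 0.01, 0.03, 0.1 or 0.3 µg/kg, where 0% of all genes were, nor at 1, 3 or 10 µg/kg, where 0.591%, 1.11% and 2.53% of all genes were. Without adjustment, 0, 0, 4, 1, 0, 8 and 4 of the 32 members had p under 0.05 in this test from 0.01 to 10 µg/kg. Over all 16741 genes the counts were 699, 591, 1037, 1247, 2356, 2289 and 2905. DESeq2 also called 0 members at each of these doses. At 30 µg/kg the called share was 6.25% of members and 9.4% of all genes, and higher calls made up 5.42% and lower calls 3.98% of all genes. A count of 2 among 32 was near the share of all genes. Fits without mouse 3 or without mouse 65 gave 3, and those without mouse 2, 4 or 67 gave 1, as did DESeq2.

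By the adjusted p alone, without the fold limit, 6 members (18.8%) passed at 30 µg/kg and all 6 were higher, against 17.8% of all genes (9.29% higher and 8.49% lower). Besides *Gsta4* and *Sult1a1* these were *Gstp1*, *Sult1d1*, *Sult2b1* and *Ugt2b34*. The members that fell in the mean at this dose, led by *Gstp3* (log2 fold change -0.62, SE 0.306) and *Gstm3* (-0.58, SE 0.433), did not pass. The median log2 fold change over members was 0.144 at 30 µg/kg and 0.237 at 3 µg/kg, compared with 0.019 and -0.002 over all genes, and at 10 µg/kg it was -0.059. The median over members was thus not ordered by dose.

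**Figure D2:**
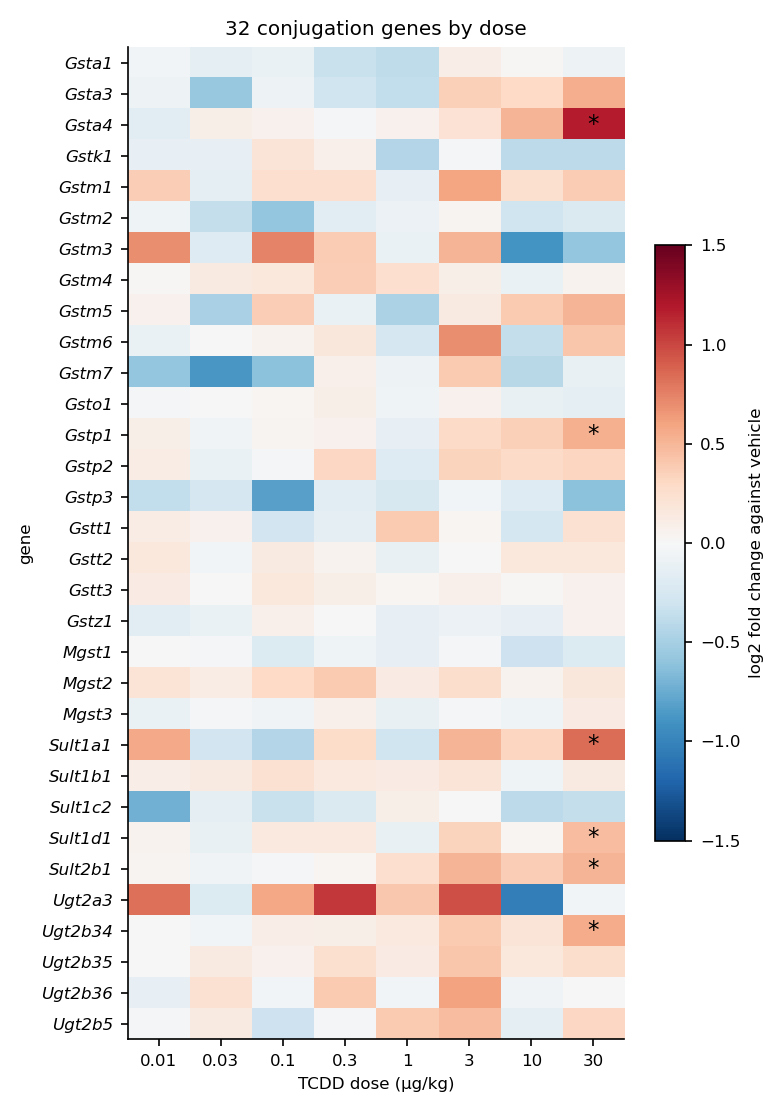
Log2 fold change against vehicle of the 32 members (rows, by family) at each TCDD dose (columns, µg/kg), with asterisks where the adjusted p was at most 0.05. The 6 asterisks are all at 30 µg/kg and all on higher values.

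*Gsta4* encodes the alpha-class transferase known for conjugating 4-hydroxynonenal, a product of lipid peroxidation. It was at 5.77, 7.85 and 7.198 CPM in vehicle mice and at 18.8, 15.7 and 12.7 CPM in mice 65, 67 and 68 given 30 µg/kg. The lowest mouse at 30 µg/kg was above every vehicle mouse. The rise was 2.27-fold (log2 fold change 1.18, SE 0.234, adjusted p = 0.00128 in edgeR). At 10 µg/kg the mice were at 8.47, 8.31 and 12.9 CPM, all above vehicle, but the difference did not pass (log2 fold change 0.51, SE 0.237, adjusted p = 0.268). From 0.01 to 1 µg/kg the 15 mice lay between 5.18 and 9.55 CPM, around the vehicle values, and at 3 µg/kg they were at 5.58, 9.51 and 8.92.

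Comparing 30 with 3 µg/kg leaves out the vehicle mice and holds index use constant. *Gsta4* was the only member called in that comparison, higher by a log2 fold change of 0.97 (SE 0.232, adjusted p = 0.036), against 0.89% of all genes. That call was lost when mouse 65 was left out (0.79, adjusted p = 0.0527) and on leaving out mouse 67 or any 3 µg/kg mouse. The call against vehicle held on leaving out each of the 6 mice in turn (1.00 to 1.31). It was also kept with index use as a covariate (1.59, adjusted p = 0.0355). In that fit the index effect comes only from mouse 41 against mice 43 and 44 at 1 µg/kg, so it cannot decide between dose and index use.

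*Gstp1* was the only other glutathione S-transferase with an adjusted p under the limit. It was at 44.1, 50.1 and 39.2 CPM in vehicle mice and at 67.3, 65.1 and 60.9 CPM at 30 µg/kg, a 1.45-fold rise (log2 fold change 0.54, SE 0.118, adjusted p = 0.00313) just under the fold limit. At 10 µg/kg (54.6, 52.5 and 63.4 CPM) all mice were also above vehicle, with a log2 fold change of 0.35 (SE 0.119, adjusted p = 0.101). Its neighbour *Gstp2* had a log2 fold change of 0.32 (SE 0.171, adjusted p = 0.211). The *Gstp1* difference held on leaving out each mouse (0.45 to 0.60) and did not pass with index use as a covariate, where the log2 fold change was 0.48 (adjusted p = 0.249).

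The leading members of the other transferase classes did not pass at 30 µg/kg. *Gsto1* was at 148.7, 177.4 and 177.0 CPM in vehicle mice and 144.3, 157.8 and 156.4 CPM at 30 µg/kg (log2 fold change -0.13, SE 0.123). *Gsta1*, which shares 90.5% of its stretches with other transcripts, was at 11.2, 13.9 and 13.0 against 14.4, 12.8 and 9.04 CPM (-0.07, SE 0.212). The groups overlapped for both, as they did for *Gstk1* (-0.40, SE 0.246), *Gstt3* (0.06, SE 0.11) and *Gstz1* (0.06, SE 0.157). *Mgst3*, a membrane enzyme that reduces lipid hydroperoxides, was at 60.7, 64.5 and 64.7 CPM at 30 µg/kg, with every vehicle mouse lower and the lowest at 55.8 CPM. Its groups did not overlap, but the log2 fold change was only 0.12 (SE 0.08, adjusted p = 0.333).

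*Sult1a1*, a phenol sulfotransferase, was among the lowest members. It was at 1.48, 0.880 and 1.45 CPM in vehicle mice, or 12 to 21 counts, and at 2.87, 2.24 and 1.71 CPM at 30 µg/kg, or 21 to 40 counts. The groups did not overlap, and the difference was 1.79-fold (log2 fold change 0.84, SE 0.282, adjusted p = 0.0418). Mice at 0.01 µg/kg (1.99, 1.88 and 1.83 CPM) were, however, above the lowest mouse at 30 µg/kg. The call was kept in 1 of 6 fits with a mouse left out and in 2 of 7 other settings. It was lost with index use as a covariate and with DESeq2, among others. Without mouse 65 the log2 fold change was 0.60 (adjusted p = 0.165).

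*Sult2b1* was at 136.8, 134.5 and 126.0 CPM in vehicle mice. At 3 µg/kg all mice were higher (173.4, 199.1 and 192.9 CPM), by a log2 fold change of 0.51 (SE 0.136, adjusted p = 0.0539), which narrowly missed the threshold. At 30 µg/kg mice 67 and 68 were at 224.8 and 205.7 CPM, but mouse 65 was at 133.6, within the vehicle range, and the log2 fold change was 0.51 (SE 0.136, adjusted p = 0.0122). *Sult1d1*, which sulfates catecholamines, showed the same order, with vehicle mice at 118.3, 147.9 and 114.5 CPM and mice 65, 67 and 68 at 137.7, 204.8 and 182.1 (log2 fold change 0.46, SE 0.141, adjusted p = 0.0249). *Sult1b1*, which is active on thyroid hormone and phenols, was at 125.7, 144.5 and 113.7 CPM in vehicle mice and 112.9, 156.0 and 152.4 CPM at 30 µg/kg, overlapping groups with a log2 fold change of 0.13 (SE 0.128). With index use as a covariate neither *Sult2b1* (log2 fold change 0.42, adjusted p = 0.411) nor *Sult1d1* (0.23, adjusted p = 0.702) passed at 30 µg/kg.

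*Ugt2b34* was at 348.3, 409.8 and 336.7 CPM in vehicle mice and at 407.2, 631.0 and 574.7 CPM in mice 65, 67 and 68. Here too mouse 65 lay within the vehicle range while the other mice at 30 µg/kg were above it. The difference was 1.47-fold (log2 fold change 0.56, SE 0.138, adjusted p = 0.00708), and did not pass with index use as a covariate (0.68, adjusted p = 0.152). At 3 µg/kg all mice (470.9, 461.1 and 501.4 CPM) were above vehicle, with a log2 fold change of 0.39 (SE 0.138, adjusted p = 0.17). Without mouse 65, *Ugt2b34* (log2 fold change 0.69) and *Sult2b1* (0.67) were called, *Sult1a1* was not, and the number of called members at 30 µg/kg was 3. *Ugt2a3* was at 2.04, 3.59 and 1.25 CPM in vehicle mice and 2.51, 3.25 and 0.895 CPM at 30 µg/kg (log2 fold change -0.04, SE 0.636), overlapping groups with the widest error of these genes. The other *Ugt2b* members did not pass the test at any dose.

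**Figure D3:**
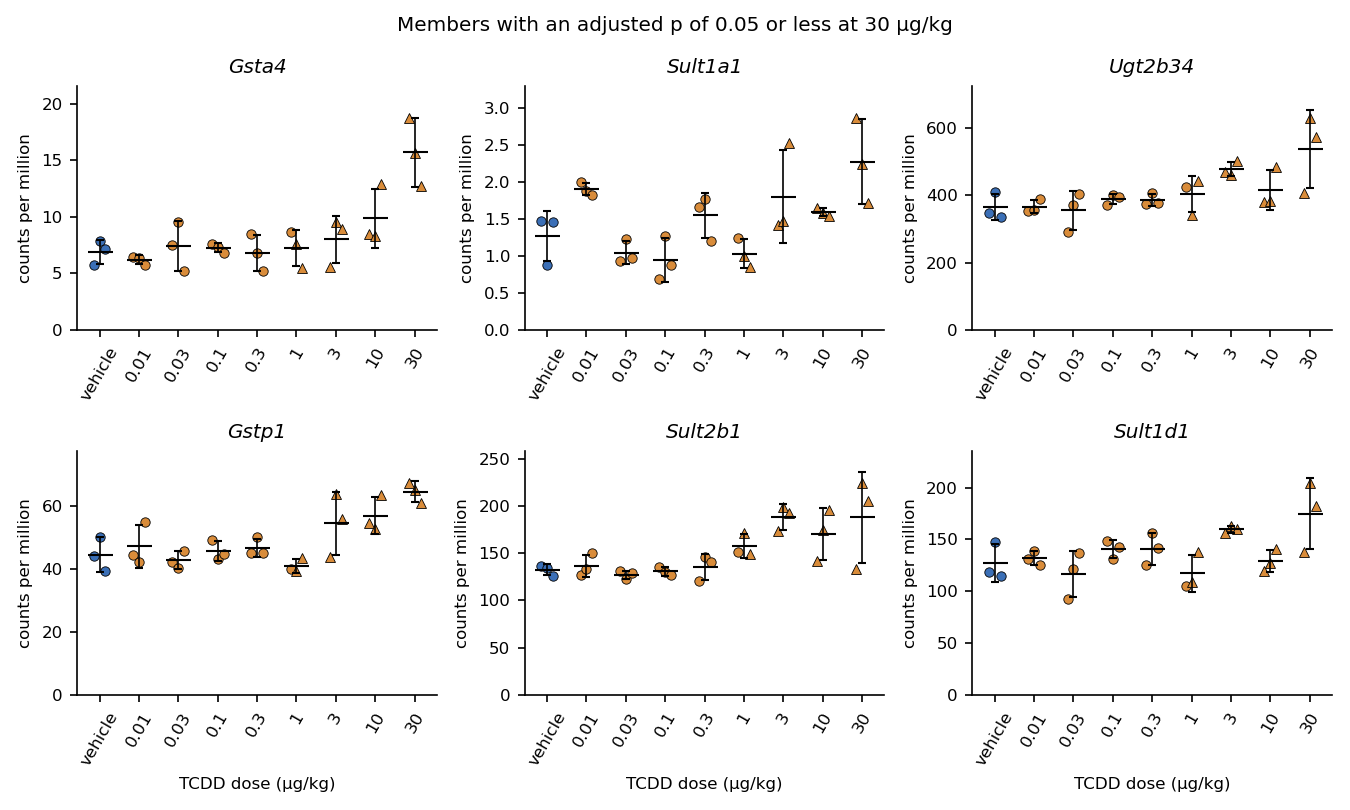
CPM of the 6 members with an adjusted p of at most 0.05 at 30 µg/kg in each of the 27 mice, by dose (µg/kg). Circles are libraries on the first use of their index and triangles those on the second, blue is vehicle, and the lines are mean ± SD (n = 3). *Gsta4*, *Sult1a1* and *Gstp1* were above vehicle in all mice at 30 µg/kg, while 1 of the 3 mice lay at vehicle level for *Ugt2b34*, *Sult2b1* and *Sult1d1*.

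Mouse 65 also stood apart in cell type markers. The summed list of absorptive enterocyte markers (*Vil1*, *Fabp2*, *Alpi*, *Apoa1*, *Apoa4*, *Apob*, *Anpep*, *Mttp* and *Krt20*) was at 26770 to 28260 CPM in vehicle mice, 17800 in mouse 65, and 47330 and 39230 in mice 67 and 68. The summed crypt list was at 473.2 to 665.1 CPM in vehicle mice, 529.1 in mouse 65, and 259.3 and 320.4 in mice 67 and 68, so that mouse 65 lay within the vehicle range and the others below it. Smooth muscle markers were at 25.0 to 109.5 CPM in vehicle mice, 345.4 in mouse 65 and 394.0 in mouse 58 (10 µg/kg), the highest values of the 27 mice. At 30 µg/kg 0 of 9 enterocyte markers were called, and 3 of 8 crypt markers were called lower. The part of these markers in the differences at 30 µg/kg was not tested.

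Each member was correlated with this enterocyte sum across the 27 mice after removal of the dose means (log2 scale, pseudocount 0.1), with p by 100000 permutations within dose and adjusted over 16732 genes, the tested genes outside the list. Of the 32 members, 1 passed with both coefficients, against 1.34% of these genes (1.13% with positive and 0.215% with negative r). That member was *Ugt2b35*, lower where the enterocyte sum was higher (r = -0.55, adjusted p = 0.0332; rho = -0.66, adjusted p = 0.0488; permutation tests). *Sult2b1* had the highest r of the members (r = 0.90, adjusted p = 0.0304), but its rho did not pass (rho = 0.75, adjusted p = 0.0526; permutation tests). For *Sult1b1* neither passed (r = 0.71, adjusted p = 0.0502; rho = 0.66, adjusted p = 0.0942; permutation tests).

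Without mice 65 and 67, the farthest from the median, r was 0.78 for *Sult2b1*, 0.64 for *Sult1b1* and -0.54 for *Ugt2b35*. For *Ugt2b34* and *Sult1d1* r fell from 0.57 and 0.58 to 0.17 and 0.31, and neither passed. *Gsta4* had r = -0.06 (adjusted p = 0.912) and rho = 0.13 (adjusted p = 0.801, permutation tests), and its highest value was in mouse 65, where the enterocyte sum was lowest.

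**Figure D4:**
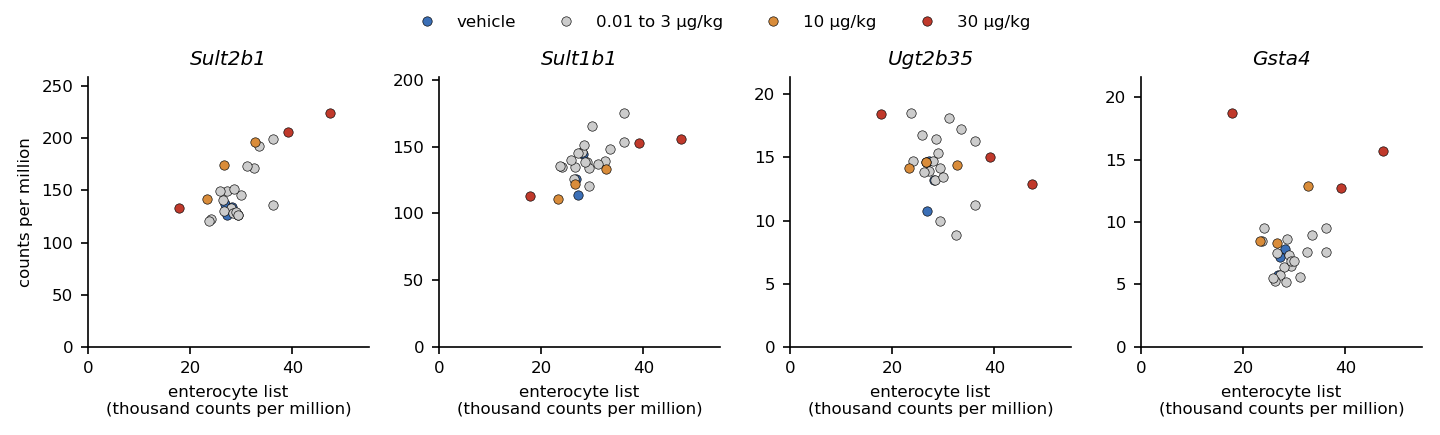
CPM of *Sult2b1*, *Sult1b1*, *Ugt2b35* and *Gsta4* against the summed enterocyte list (CPM) in each of the 27 mice, coloured by dose. The within-dose r was 0.90 for *Sult2b1* and -0.55 for *Ugt2b35*, and the 3 mice at 30 µg/kg (red) were above all vehicle mice (blue) for *Gsta4* at both ends of the list.

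The members varied unequally between mice of the same dose. The within-dose SD on the log2 scale was 0.82 for *Ugt2a3*, 0.67 for *Gsta3* and 0.59 for *Gstm3*, the widest of the 32. *Gstm3*, for example, was at 41.3, 13.8 and 19.8 CPM in the 3 mice at 0.1 µg/kg. Its log2 fold change of -0.90 at 10 µg/kg had an SE of 0.44 and did not pass (adjusted p = 0.294), while *Mgst3*, with the lowest within-dose SD (0.09), was measured to an SE of 0.08.

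Testing the 9 groups together for any difference gave 7 members (21.9%), compared with 9.53% of all genes. The count was 0 with index use as a covariate, 2 with library size only and 3 without mouse 67. The 7 were the 6 members named at 30 µg/kg and *Gstm5*, a mu-class gene (adjusted p = 0.0417 across groups). Its vehicle mice lay between 2.79 and 4.29 CPM and its mice at 30 µg/kg between 4.49 and 5.16 CPM. Mice at 0.1 and 10 µg/kg lay between 3.75 and 5.17 and between 4.39 and 4.82 CPM. The lowest mice at 0.03 and 1 µg/kg were at 1.73 and 1.61 CPM. *Gstm5* did not pass at 30 µg/kg against vehicle, nor in the trend over the rank of the dose (adjusted p = 0.131). A trend over the rank of the dose passed for 6 members (18.8%) and 26.2% of all genes. 5 members rose, namely *Gsta4* (slope 0.124 log2 units per dose step, SE 0.025, adjusted p = 0.000428), *Sult2b1*, *Ugt2b34*, *Gstp1* and *Sult1d1* (0.042 to 0.073), against 13.4% of all genes.

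The only member with a falling trend was *Mgst1*, which detoxifies lipid hydroperoxides at the endoplasmic reticulum (slope -0.027, SE 0.009, adjusted p = 0.0294), against 12.8% of all genes. It was at 95.8, 103.5 and 111.1 CPM in vehicle mice, 75.7, 88.3 and 86.3 at 10 µg/kg and 88.1, 91.7 and 90.0 at 30 µg/kg, below vehicle in all 6. The fall was not steady. At 3 µg/kg the mice were at 105.7, 104.3 and 97.6 CPM, within the vehicle range, and at 0.1 µg/kg at 77.3, 93.4 and 99.0. With index use as a covariate 0 members had a trend, within the first use 0 and within the second use 1, *Gsta4* (slope 0.423, SE 0.082, adjusted p = 0.0208).

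Every mouse was above every vehicle mouse for 6, 5 and 5 members at 3, 10 and 30 µg/kg (12.4%, 11.5% and 13.7% of all genes) and below for 0, 3 and 2 (12.1%, 11.8% and 13.3%). At 3 µg/kg the 6 members were *Sult2b1*, *Sult1d1*, *Ugt2b34*, *Ugt2b35*, *Mgst2* and *Gstm6*. At 30 µg/kg they were *Gsta4*, *Gstp1*, *Sult1a1*, *Gstm5* and *Mgst3*, and the 2 below were *Mgst1* and *Gstp3*. The lists of members above vehicle at 3 and 30 µg/kg shared no member, but the same overlap was not counted over all genes.

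Of 20 genes of glutathione supply, use and breakdown, 3 were called higher and 3 lower at 30 µg/kg, and the others were not called (median log2 fold change 0.11). For this list and those below, the shares over all genes were 5.42% higher and 3.98% lower, with a median of 0.019. *Gclc*, the catalytic subunit of the rate-limiting enzyme of glutathione synthesis, rose 1.83-fold (log2 fold change 0.87, SE 0.131, adjusted p = 8.23e-05), with vehicle mice between 44.5 and 47.4 CPM and mice at 30 µg/kg between 67.3 and 104.0 CPM. Its modifier subunit *Gclm* did not pass (log2 fold change 0.17, SE 0.206). *Oplah*, which recycles 5-oxoproline to glutamate, rose 2.82-fold and *Dpep1*, a dipeptidase that cleaves cysteinylglycine conjugates, 1.61-fold.

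The genes that fell were *Gpx2*, the intestinal glutathione peroxidase, by 3.20-fold (log2 fold change -1.68, SE 0.29), *Chac1*, which breaks glutathione down, by 3.70-fold (-1.89, SE 0.442), and *Gsr*, which regenerates reduced glutathione, by 1.73-fold (-0.79, SE 0.144). The vehicle range of *Gpx2*, 215.1 to 342.0 CPM, did not overlap with its range of 49.6 to 143.0 CPM under 30 µg/kg.

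In sulfate donor supply 2 of 11 genes were higher and 0 lower (median 0.15). *Papss1*, a PAPS synthase, rose 1.68-fold (log2 fold change 0.75, SE 0.175, adjusted p = 0.00474). *Slc26a1*, a sulfate transporter, rose 3.98-fold in the fit (adjusted p = 0.0354), but the mice at 30 µg/kg spread from 0.215 to 2.04 CPM around the vehicle range of 0.277 to 0.352. In glucuronate donor supply 0 of 9 genes were higher and 1 lower (median 0.07). That gene was *Hk2*, a hexokinase, which fell 4.34-fold (log2 fold change -2.12, SE 0.32, adjusted p = 9.25e-05). *Ugdh*, which makes UDP-glucuronic acid, had a log2 fold change of 0.24 (SE 0.127, adjusted p = 0.2).

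Of 9 listed membrane transporters, among them carriers of conjugates and bile acids, 4 were higher and 0 lower at 30 µg/kg (median 0.07). Over all genes 5.42% were called higher and 3.98% lower. *Abcc2*, which exports glutathione, glucuronide and sulfate conjugates across the apical membrane, rose at 1, 3, 10 and 30 µg/kg (log2 fold changes 1.79, 2.21, 1.98 and 2.35, adjusted p = 0.0123, 0.0014, 0.00156 and 8.13e-05). *Abcc5* rose 3.32-fold, *Abcb1a* 2.59-fold and *Slc10a2*, the apical bile acid carrier, 1.68-fold at 30 µg/kg. *Abcc2* was called from 1 µg/kg upwards, while no conjugating enzyme of the 32 was called below 30 µg/kg. Whether the doses at which they respond differ was not tested.

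Among 14 regulators, 4 were higher and 0 lower (median 0.18). *Ahrr*, the AhR repressor, rose 29.8-fold, *Nr1i3* (CAR) 2.93-fold, *Ppara* 1.88-fold and *Nfe2l2*, which encodes NRF2, 1.51-fold at 30 µg/kg. Of 10 reference targets of AhR and NRF2, 5 were higher, namely *Cyp1a1*, *Cyp1b1* (64.5-fold), *Ahrr*, *Tiparp* (1.82-fold) and *Gclc*. *Nqo1*, the usual marker of NRF2 activity, had a log2 fold change of 0.07 (SE 0.201, adjusted p = 0.851), and *Hmox1*, *Srxn1*, *Txnrd1* and *Gclm* did not pass either.

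**Figure D5:**
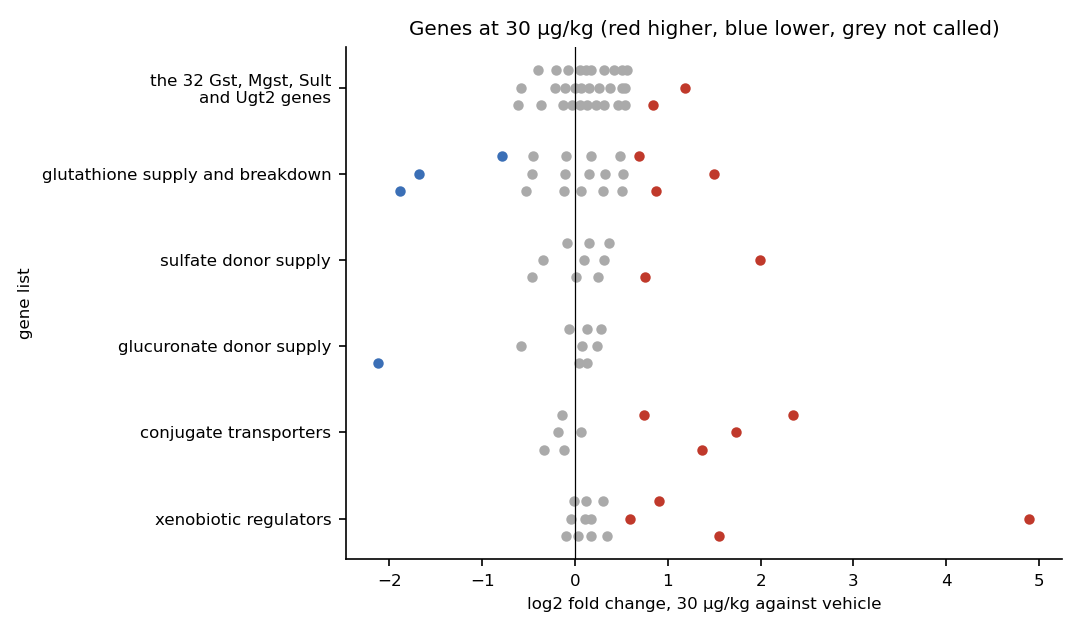
Log2 fold change at 30 µg/kg against vehicle of the 32 members and of 5 gene lists around them, 1 dot per gene, red for called higher, blue for called lower and grey for not called. The list labelled conjugate transporters, which also holds *Slc10a2* and *Abcb1a*, had 4 of 9 genes called higher and the 32 members 2. Over all genes 5.42% were called higher.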

How the data were processed

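RNA-Seq libraries of ileal epithelium were made from 27 mice, 3 per group. The authors trimmed adaptors (Trimmomatic 0.33), mapped reads to GRCm38 with TopHat2 2.1.0 and deposited raw counts per Ensembl gene, 1 table per mouse. The submitters' processing notes also list FastQC 0.11.3, SAMtools 1.2.0, HTSeq 0.6.1 and DESeq, of which the counting step is not described in the sources used here. The strand setting and the treatment of reads with more than 1 alignment are not given in the sources used here, and the tables record 11.15 to 16.43 M alignments per mouse as not unique, 44.48% to 49.52% of the remaining reads as matching no feature and 0.61% to 1.02% as ambiguous, which were left out of library sizes and tests.

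Gene symbols, positions and exon lengths came from GENCODE M21. Genes were filtered with filterByExpr (16741 kept, all 32 members among them), normalized by TMM and tested with edgeR 4.0.16 in R 4.3.3 (quasi-likelihood, 9 groups, no covariate). The trend test used the rank of the dose. SE is the estimate over the square root of F. CPM values use TMM-scaled library sizes. The procedure was tested on simulated counts. The 27 within-dose pairs of libraries differed by chi-square per degree of freedom of 6.99 to 74.26, so none was a copy. Mice were co-housed, and the cage of each is not in the labels, so p-values treat mice as independent.

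Values and tests are given for members called at any dose and for the highest member of each family in vehicle mice, and others are summarised or named with a level or fold change. *Gstm5*, *Mgst1*, *Ugt2b35* and the members that passed by adjusted p alone were singled out after their values were seen. From each surrounding list the called genes were named, at most 6. The members and lists were chosen with earlier results of these data known. Alternatives were DESeq2 1.42.0, upper-quartile factors, library size only, other filters on low counts, no fold limit, fits of the 6 mice compared, index use as a covariate, and leaving out each mouse. The enterocyte correlations, adjusted over all tested genes outside the list, were added after the data were seen. 1 gene of the enterocyte list is not reported here, and the summed list and its correlations were computed without it.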

Additional observations from a re-analysis of the deposited data

How the results depend on the processing

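Counts of called members at 0.01 to 10 µg/kg were 0 under every alternative. At 30 µg/kg the count of 2 became 1 with library size only, with no filter on low counts, with index use as a covariate, in the fit of only the 6 mice compared and with DESeq2, 6 with no fold limit, and 1 to 3 on leaving out 1 mouse. The count was 1 without mouse 2, 4 or 67 and 3 without mouse 3 or 65. *Gsta4* was called in all of these fits at 30 µg/kg, and in those with a count of 1 the lost call was that of *Sult1a1*. For 30 against 3 µg/kg the count of 1 became 0 with library size only and in the fit of only the 6 mice compared, and was 0 to 1 on leaving out 1 mouse. Members with any difference among the 9 groups, 7 in all, were 2 with library size only, 0 with index use as a covariate and 3 to 8 on leaving out 1 mouse, with 3 without mouse 67, 4 without each of mice 2, 9, 11, 36, 41, 50, 51, 58 and 68, and 8 without mouse 44. Members with a trend, 6 in all, were 0 with index use as a covariate, 0 in mice of the first index use, 1 in mice of the second and 4 to 6 on leaving out 1 mouse. The causes were not tested, except that fits of 1 index use hold fewer mice.

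With library size only, the median log2 fold change of all genes at 30 µg/kg moved from 0.019 to -0.111 and that of the members from 0.144 to 0.007, so values at this dose are relative to that shift. Of 220 refitted values of the named members, 180 kept their call or, with no call, stayed within 1 SE, 19 with no call moved by more than 1 SE, 17 lost a call, 4 gained one and 0 reversed a call. By adjusted p alone at 30 µg/kg, *Gstp1*, *Sult1d1*, *Sult2b1* and *Ugt2b34* were kept in 6, 4, 5 and 5 of 7 other settings and in 6, 2, 3 and 4 of 6 fits with a mouse left out, and all 4 were lost with index use as a covariate. No paired analysis was possible because the labels give no replicate numbers shared between groups. Depth limits the members of 10 to 40 counts per mouse, such as *Sult1a1*.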

Other observations

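The members were also compared with each other within dose over the 27 mice. The highest of 496 correlations was between *Sult1d1* and *Ugt2b34* (r = 0.81, rho = 0.70, r = 0.70 without the pair of farthest mice), and other high values included *Gstm1* with *Gstm3* (r = 0.72, rho = 0.76), *Gstp1* with *Gstp2* (r = 0.71, rho = 0.74) and *Ugt2b36* with *Ugt2b5* (r = 0.69, rho = 0.68). None of the 496 pairs passed after Benjamini-Hochberg adjustment of permutation p-values (*Sult1d1* with *Ugt2b34*, adjusted p = 0.0836 for r and 0.0953 for rho; lowest of all pairs 0.0657 for r and 0.0721 for rho). *Gstp1* and *Gstp2* share 33.7% and 54.3% of their 50-base stretches with other transcripts, mainly each other, whereas *Sult1d1* shares 0.0% and *Ugt2b34* 1.44%.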
